A study of Mus musculus with 12 samples.

Results

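The 6 tibialis anterior muscles described here, of 12 in the series, came from mdx mice injected with cardiotoxin, and they show how the muscle's RNA differed between day 3 and day 7 of repair. The mice were 4 months old and of strain C57BL/10ScSn-Dmdmdx/J, in which a mutation of Dmd prevents full-length dystrophin, the fault behind Duchenne muscular dystrophy. Each muscle had received cardiotoxin, a snake toxin that kills muscle fibres, together with anti-miR-Scrambled, an inhibitor of scrambled sequence that served as the control. Of these 6 muscles, 3 were collected at day 3 and 3 at day 7 after the injection, and the design gives 3 animals for each point. The other 6 muscles had the same strain, age, toxin and days but received anti-miR-106b in place of the scrambled inhibitor. They are used below to ask where the change differed between the arms. They also add to the estimate of the spread behind the p-values and standard errors of the scrambled comparison. All 12 muscles are therefore dystrophic and injured, so neither uninjured mdx muscle nor healthy muscle sets the level to which values return. The design text once gives the later day as 5, while the label of every sample gives 3 or 7, and the sample labels were followed.

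Skeletal muscle rebuilds itself from satellite cells, stem cells marked by Pax7 that lie along the fibre. After injury they divide as myoblasts under Myf5 and Myod1, leave the cell cycle under Myog, fuse through the membrane proteins myomaker and myomixer, and form new fibres that first make embryonic and neonatal contractile proteins and later the adult ones. Monocytes enter early and become macrophages that clear dead fibres, and fibroblast-like progenitors lay down a transient matrix around the growing fibres. In mdx muscle cycles of this kind also run without any toxin.

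The smallest library held 31600704 reads and the largest 42825246, and a level of 1 CPM (a read count scaled by the authors to library size) stood for 31.5 to 38.3 reads. Of 28116 gene symbols, 13624 reached 1 CPM in at least 3 of the 6 muscles and were tested. A change is the day 7 mean minus the day 3 mean on the log2 scale, given with its standard error from limma (3 muscles a day), and a gene passed where the limma p-value, adjusted over all tested genes by the Benjamini-Hochberg method, was below 0.05. Skeletal muscle markers were abundant at both days: Acta1, skeletal actin, was at 24448, 28232 and 26107 CPM at day 3 and 40500, 41086 and 42507 CPM at day 7. Markers of other tissues were at lower levels. The skin keratin Krt5 was at 0 in 5 of 6 muscles, the fat hormone Adipoq at 4.39 to 9.67 CPM, the haemoglobin chain Hbb-bs at 31.0 to 98.4 CPM, and the tendon genes Scx and Tnmd at 14.5 to 24.6 and 15.6 to 36.0 CPM. Whole muscle was sampled, so fewer cells of a type and less RNA per cell cannot be told apart in any result below.

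Between day 3 and day 7 more genes passed than not, and rises and falls were about equal in number. Specifically, 4572 genes passed as higher at day 7 (33.6% of those tested) and 4770 as lower (35.0%). The falls reached much further than the rises. At least 2-fold, 293 genes were higher (2.15%) and 1873 lower (13.7%), at least 4-fold 4 were higher and 731 lower, and the 8 genes past 32-fold were all lower. In 72.8% of genes the 3 muscles of one day all lay above the 3 of the other. The first principal component of the 6 muscles, the axis of largest variance, held 89.2% of the variance and set the days apart. How the counts divide between directions depended on the scaling: with library totals alone 1515 genes were higher and 8303 lower, since the authors' factors averaged 1.12 ± 0.031 at day 3 and 0.845 ± 0.037 at day 7 (SD, n = 3) and total scaling moved the median of all genes by -0.40. With quantile normalization 5973 were higher and 3863 lower, with the median at 0.14. All 4770 genes that fell also fell with library totals, as 278 of the 293 genes at least 2-fold higher also rose.

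**Figure D1:**
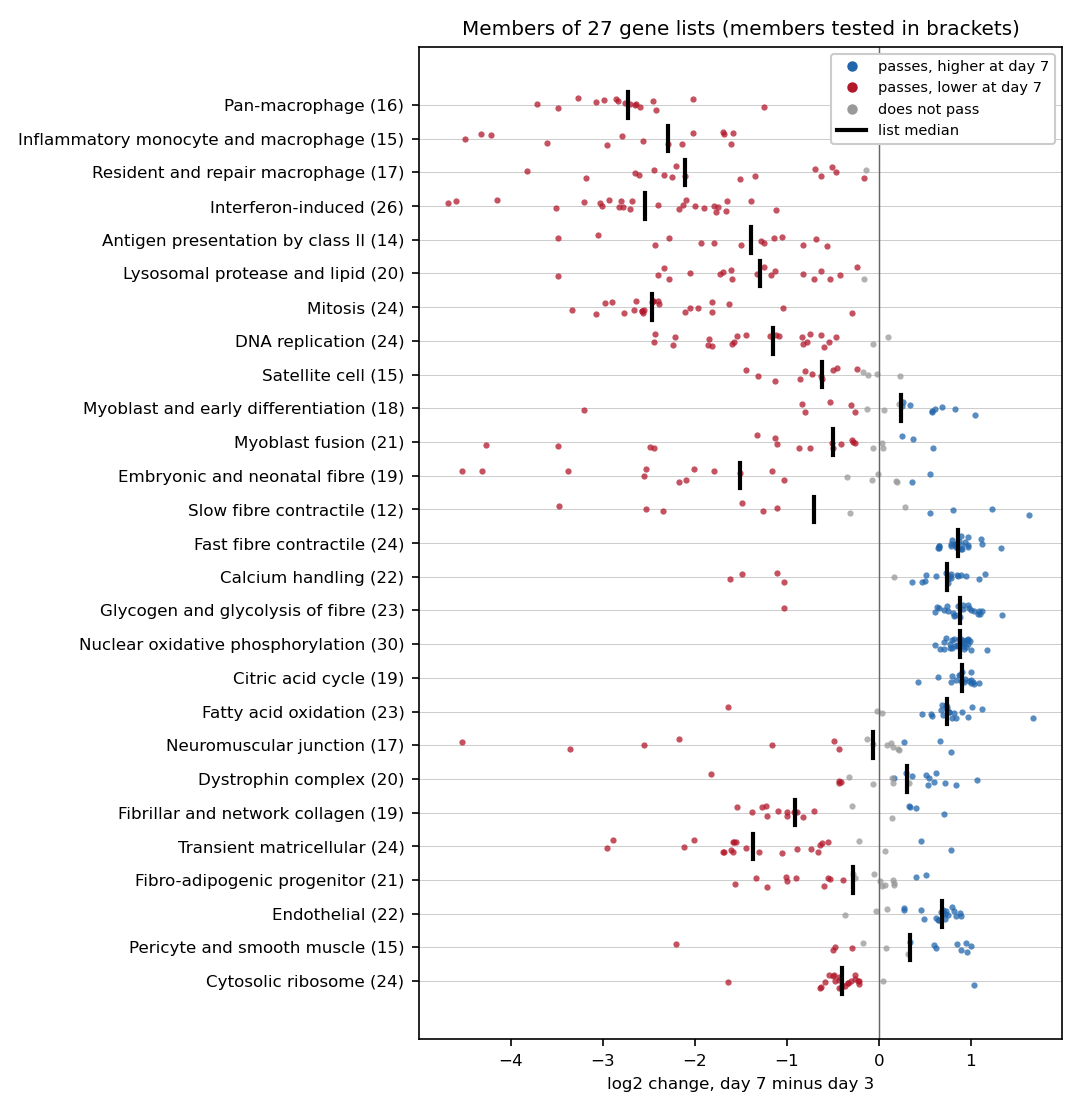
Log2 change (day 7 minus day 3, x axis) of every tested member of 27 of the 55 gene lists, with 1 dot per gene coloured by its limma call and a black bar at the list median. The macrophage, interferon and mitosis lists lie far to the left, with medians from -2.73 to -2.11, while every gene of the fast fibre, oxidative phosphorylation and citric acid cycle lists lies between 0.43 and 1.33 (Myl1, Neb, Mylpf, Myh1 and Acta1 turn to values of -0.035 to -0.11 with quantile normalization).

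Macrophage genes fell throughout. All 16 tested members of a list of genes shared by macrophages fell, where 35.0% of all tested genes did, and each fell at least 2-fold, where 13.7% did. Their median change was -2.73 against 0.003 for all tested genes. Cd68, a lysosomal glycoprotein used as a macrophage stain, was at 165, 149 and 152 CPM at day 3 and 16.6, 19.6 and 22.8 CPM at day 7, a 7.93-fold fall (-2.99 ± 0.18, adjusted p = 2.24e-08). Adgre1, which encodes the F4/80 antigen, was at 107, 105 and 106 CPM at day 3 and 13.0, 18.8 and 19.6 CPM at day 7 (-2.65 ± 0.16, adjusted p = 2.76e-08). Fcgr1, a receptor for antibodies, was at 47.2, 49.3 and 47.4 CPM at day 3 and 2.80, 3.74 and 4.61 CPM at day 7 (-3.72 ± 0.31, adjusted p = 2.34e-07). All 3 day 7 muscles lay far below all 3 day 3 muscles for these genes. Together the 16 genes took 0.491, 0.462 and 0.472% of reads in the day 3 muscles and 0.0453, 0.0648 and 0.0787% in the day 7 muscles. The part of this in the falls of other lists was not tested.

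Genes of inflammatory monocytes and genes of repair macrophages, which mark successive states of the same lineage, fell side by side. Of 15 tested inflammatory genes 14 fell, all at least 2-fold, with a list median of -2.29. Ly6c2, the surface antigen of newly arrived monocytes, was at 11.0, 9.21 and 10.3 CPM at day 3 and 0.241, 0.506 and 0.699 CPM at day 7 (-4.50 ± 0.55, adjusted p = 7.7e-06). Il1rn, the secreted blocker of the interleukin 1 receptor, fell by 4.33 ± 0.56 (limma adjusted p = 1.41e-05), and Chil3, a chitinase-like protein of activated macrophages, fell by 4.22 ± 0.30 (limma adjusted p = 7.78e-08). Nos2, the inducible nitric oxide synthase, was the exception in this list. It rose from 2.27, 2.75 and 2.20 CPM to 3.95, 4.92 and 6.003 CPM (1.03 ± 0.18, adjusted p = 0.000198), at levels that remained low. Of 17 repair and resident macrophage genes 16 fell, 11 of them at least 2-fold, with a median of -2.11.

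Among repair genes the size of the fall varied widely. Gpnmb, a glycoprotein of phagocytic macrophages, was at 289, 257 and 269 CPM at day 3 and 15.1, 16.8 and 27.9 CPM at day 7, which is 14.1-fold lower (-3.82 ± 0.32, adjusted p = 2.94e-07). Trem2, a lipid-sensing receptor, fell by 3.18 ± 0.26 and C1qb, a chain of complement C1q, fell by 2.65 ± 0.18 (limma adjusted p = 2.29e-07 and 5.85e-08). Mrc1, the mannose receptor of resident and repair macrophages, fell less, from 83.1, 97.1 and 92.1 CPM to 25.9, 36.1 and 34.1 CPM (-1.51 ± 0.12, adjusted p = 1.27e-07). Mgl2, a lectin of the same cells, was the only member that did not pass. Arg1, a usual marker of this state, was at 0.809, 1.25 and 1.41 CPM at day 3 and 0.573, 0.141 and 0.127 CPM at day 7 and was too low to be tested.

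Lists of programmes that serve these cells fell too, in part through shared members. Ctss, Cd74, Mertk and Gas6, among others, also stand in the macrophage lists above. The part of other cell types in the remaining members was not tested. Lysosomal enzymes and lipid handlers fell in 19 of 20 genes (median -1.29), among them Ctss, a protease of antigen-presenting cells, at 578, 526 and 535 CPM at day 3 and 38.9, 46.6 and 63.9 CPM at day 7. The class II antigen presentation list fell in 14 of 14 (median -1.39). Receptors and bridging molecules for the uptake of dead cells fell in 14 of 16, including the scavenger receptor Msr1 (-2.91 ± 0.26) and the kinase Mertk (-2.20 ± 0.16). Stab2, a scavenger receptor of vessel lining, went the other way at 4.54, 6.21 and 5.75 CPM at day 3 and 11.8, 7.73 and 6.10 CPM at day 7 (0.59 ± 0.21, adjusted p = 0.0223). Its groups overlapped, and the call was lost without day 3 replicate 1 (limma adjusted p = 0.0981) or day 7 replicate 1 (limma adjusted p = 0.114). Chemokines fell in 13 of 17 genes, led by the interferon-induced Cxcl10 (-3.66 ± 0.43) and by Ccl4 (-3.37 ± 0.33) and Ccl3 (-3.32 ± 0.56). Cx3cl1, a membrane-bound chemokine, rose from 4.86, 5.41 and 5.25 to 7.53, 7.54 and 7.72 CPM (0.56 ± 0.12, adjusted p = 0.000759), a call lost with total-count scaling (0.15).

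Complement genes did not all follow. Of 20, 15 fell and 4 rose. The receptors C3ar1 (-3.12 ± 0.21), Itgax (-3.06 ± 0.36) and Itgam (-2.70 ± 0.18), carried by myeloid cells, fell most, followed by the C1q chains. Itgam and the C1q chains are also members of the macrophage lists above. With library totals 17 fell and 1 rose. Cd59a, which protects a cell's own membrane from complement attack, rose from 39.5, 40.4 and 37.9 CPM to 71.0, 77.6 and 69.6 CPM (0.89 ± 0.064, adjusted p = 8.11e-08). Few lymphocyte and granulocyte genes could be tested. Only 6 of 16 neutrophil genes were high enough to be tested and 4 of them fell, with Csf3r, the receptor for granulocyte growth factor, at 17.0, 13.1 and 15.6 CPM at day 3 and 1.15, 1.77 and 1.91 CPM at day 7. Among 7 tested T and NK cell genes 6 fell, including Il7r, the interleukin 7 receptor, at 9.69, 9.24 and 9.90 CPM at day 3 and 0.814, 0.900 and 0.858 CPM at day 7 (-3.48 ± 0.30, adjusted p = 3.42e-07). The T cell markers Cd3d, Cd3e, Cd3g and Cd8a were among the members of this list too low to be tested. In B and plasma cells the counts were 2 lower and 1 higher of 3. Ighm, the heavy chain of IgM, was at 48.3, 61.1 and 55.0 CPM at day 3 and 30.1, 47.3 and 29.8 CPM at day 7 (-0.65 ± 0.15, adjusted p = 0.00203). The one that rose, the light chain gene Igkc, was at 0.888, 1.47 and 1.13 CPM at day 3 and 1.21, 1.91 and 4.03 CPM at day 7 (0.88 ± 0.36, adjusted p = 0.0415) and lost its call without any 1 of 4 libraries, with limma adjusted p up to 0.221 without day 7 replicate 3.

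The antiviral programme induced by interferon fell as a block. All 26 genes of that list fell, each at least 2-fold, with changes from -4.68 to -1.12 and a median of -2.54. Mx1, a GTPase that blocks viruses (chromosome 16, 97447035 to 97462907, minus strand, GRCm38), was at 24.5, 18.5 and 23.6 CPM at day 3 and 0.482, 0.844 and 1.52 CPM at day 7 (-4.68 ± 0.31, adjusted p = 4.7e-08). Oas3, which makes the messenger that activates RNase L, was at 18.6, 16.6 and 18.8 CPM at day 3 and 0.603, 0.534 and 1.24 CPM at day 7 (-4.60 ± 0.34, adjusted p = 1.02e-07). Isg15, a ubiquitin-like tag, was at 25.8, 25.0 and 24.7 CPM at day 3 and 2.56, 2.95 and 4.03 CPM at day 7 (-3.01 ± 0.18, adjusted p = 2.07e-08). The 3 day 7 muscles were the 3 lowest for each of these genes. Slfn1 (-4.74 ± 0.27) and Slfn4 (-4.42 ± 0.36), members of the Schlafen family, and Ms4a4c (-4.68 ± 0.28), a 4-span membrane protein of immune cells, stood beside them among the 12 largest falls chosen by the same limits as the rises below. Genes of this programme are switched on through a promoter element, the interferon-stimulated response element. Its core, GAAANNGAAA, searched on both strands in the 250 bases before RefSeq starts (GRCm38.p6), was found in 11 of 20 windows of these genes (55.0%) against 2.77% of 13323 windows of all tested genes that the RefSeq table holds, where a gene with several starts has several windows. A match of letters describes the sequence and shows no binding. Both windows below give the 160 bases before the start, read 5′ to 3′ on the gene's strand, and are shown because Isg15 and Oas3 are among these falls; capitals mark every match to the core, of which Isg15 holds 3 that overlap.
Isg15 (chr4:156200819-156200978, minus strand): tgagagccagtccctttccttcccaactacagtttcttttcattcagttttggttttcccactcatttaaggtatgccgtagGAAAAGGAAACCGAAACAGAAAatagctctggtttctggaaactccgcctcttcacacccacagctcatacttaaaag
Oas3 (chr5:120777660-120777819, minus strand): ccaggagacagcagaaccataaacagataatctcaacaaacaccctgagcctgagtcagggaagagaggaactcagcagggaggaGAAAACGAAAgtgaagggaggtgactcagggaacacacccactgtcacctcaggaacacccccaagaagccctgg

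**Figure D2:**
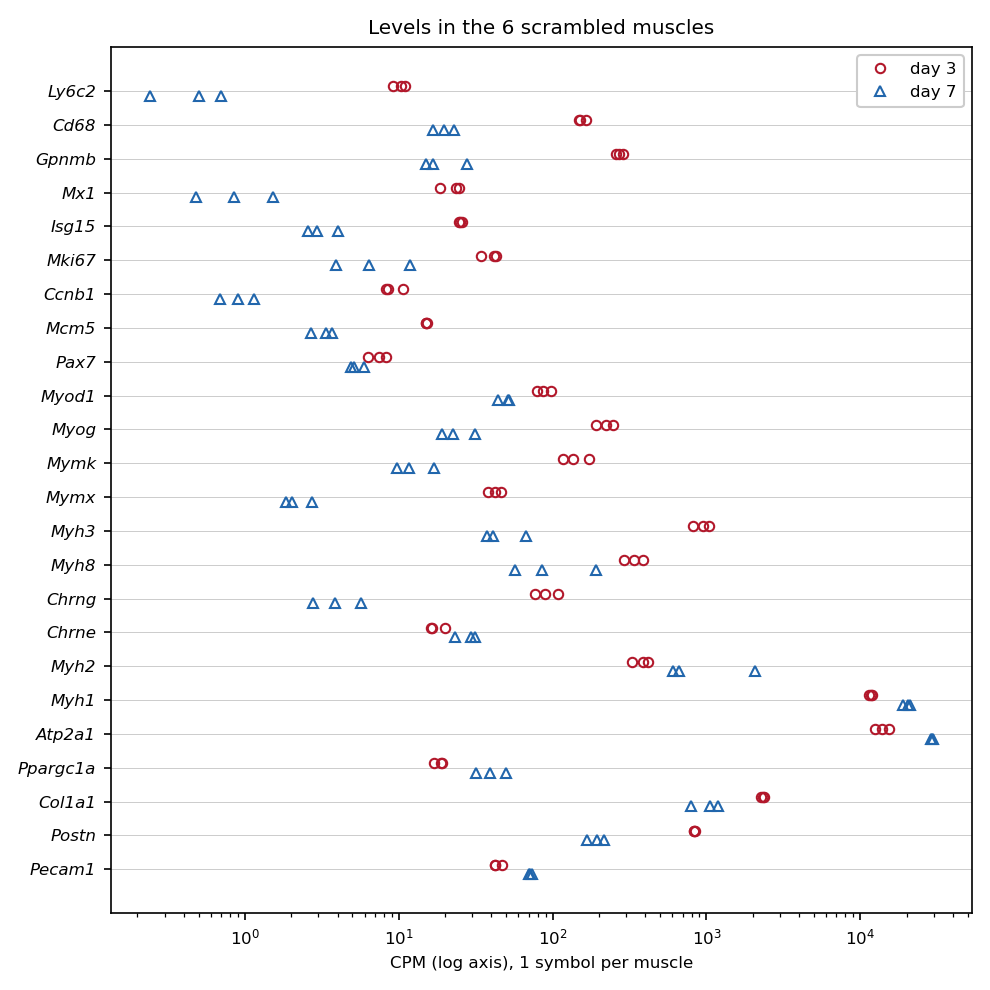
Level in CPM (log x axis) of 24 genes in each of the 3 day 3 muscles (red circles) and 3 day 7 muscles (blue triangles). Macrophage, interferon, cell division, fusion and embryonic genes sit lower at day 7, while Chrne, Myh2, Myh1, Atp2a1, Ppargc1a and Pecam1 sit higher, and Myh1 alone among these 24 turns with quantile normalization (-0.041).

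Cell division genes were high at day 3 and low at day 7. Every one of 24 mitosis genes fell, 23 at least 2-fold, with a median of -2.46. Mki67, a nuclear protein of cycling cells, was at 43.2, 34.0 and 41.5 CPM at day 3 and 3.89, 6.41 and 11.8 CPM at day 7 (-2.56 ± 0.29, adjusted p = 3.4e-06). Ccnb1, cyclin B1, which drives entry into mitosis, was at 10.7, 8.49 and 8.26 CPM at day 3 and 0.693, 0.900 and 1.14 CPM at day 7 (-3.34 ± 0.26, adjusted p = 1.43e-07). The kinetochore motor Cenpe fell by 3.07 ± 0.42 and the checkpoint kinase Bub1b by 2.98 ± 0.39 on the log2 scale (limma adjusted p = 2.12e-05 and 1.33e-05). Day 7 replicate 3 was the highest of its group for all 4 genes, with 11.8 CPM of Mki67 against 3.89 and 6.41 CPM, and still lay below every day 3 muscle.

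DNA replication genes fell less. Of 24 tested, 22 fell, 14 at least 2-fold, with a median of -1.15. Cdt1, which loads the replicative helicase onto origins, was at 7.18, 5.77 and 7.22 CPM at day 3 and 1.30, 1.10 and 1.30 CPM at day 7 (-2.44 ± 0.17, adjusted p = 7.24e-08). Helicase subunit Mcm5 was at 15.0, 15.0 and 15.3 CPM at day 3 and 3.35, 2.70 and 3.65 CPM at day 7 (-2.23 ± 0.18, adjusted p = 1.71e-07), while its partner Mcm7, whose gene carries the miR-106b cluster, fell by 0.84 ± 0.089 from 23.5, 23.3 and 21.1 to 14.0, 11.6 and 12.5 CPM (limma adjusted p = 2.25e-06). Rfc4 and Rrm1 did not pass.

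Promoter letters differed between these lists. CCAAT, the box read by the factor NF-Y, stood on either strand in 18 of 21 windows of mitosis genes (85.7%), in 13 of 22 of replication genes (59.1%) and in 34.7% of all windows. An 8-base E2F motif (TTTCCCGC, TTTGGCGC, TTTCGCGC or TTTGCCGC, either strand) stood in 6 of 22 windows of replication genes (27.3%), in 1 of 21 of mitosis genes (4.76%) and in 3.11% of all. The windows below are shown because their genes fell steeply: Ccnb2, cyclin B2 (-2.57 ± 0.36), and Cdk1, the kinase that both B cyclins activate (-2.46 ± 0.22), with CCAAT in capitals (ATTGG on the other strand), and Mcm5 with a pair of overlapping E2F motifs in capitals. Capitals mark only the motif named for each gene. In lower case the Cdk1 window also holds the E2F motif TTTCGCGC and the Mcm5 window also holds CCAAT, so these windows do not set the lists apart.
Ccnb2 (chr9:70421555-70421714, minus strand): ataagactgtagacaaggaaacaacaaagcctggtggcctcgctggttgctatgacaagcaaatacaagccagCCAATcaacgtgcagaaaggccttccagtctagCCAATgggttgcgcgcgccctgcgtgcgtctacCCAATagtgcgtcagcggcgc
Cdk1 (chr10:69352913-69353072, minus strand): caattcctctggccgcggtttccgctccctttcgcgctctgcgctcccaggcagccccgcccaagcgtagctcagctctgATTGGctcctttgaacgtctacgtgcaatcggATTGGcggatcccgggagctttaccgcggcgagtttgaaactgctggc
Mcm5 (chr8:75109349-75109508, plus strand): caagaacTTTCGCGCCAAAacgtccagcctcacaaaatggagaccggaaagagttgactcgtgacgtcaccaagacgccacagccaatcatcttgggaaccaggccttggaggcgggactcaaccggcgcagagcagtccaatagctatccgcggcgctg

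Genes that hold back the cell cycle were divided. Of 18 brake genes 9 fell, 5 rose and 4 did not pass, and none rose with library totals. Cdkn1a, the p21 inhibitor that myoblasts raise when they stop dividing, was at 256, 202 and 222 CPM at day 3 and 39.8, 35.5 and 44.7 CPM at day 7 (-2.50 ± 0.13, adjusted p = 1e-08). Cdkn1c, the related p57 inhibitor, fell by 1.82 ± 0.19 and the antiproliferative factor Btg1 by 1.09 ± 0.091 (limma adjusted p = 1.59e-06 and 2.54e-07). Ccng1, a p53-induced cyclin, rose from 491, 527 and 515 to 679, 766 and 716 CPM (0.49 ± 0.064, adjusted p = 1.26e-05), a call lost with both other scalings (0.086 with library totals and 0.043 with quantile normalization).

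Satellite cell genes fell, mostly by less than 2-fold. Of 15 tested 11 fell, 3 of them at least 2-fold, and none rose, with a median of -0.62. With library totals 14 fell, and with quantile normalization 7 fell and 1 rose (median -0.33). Pax7 itself was at 8.22, 7.46 and 6.35 CPM at day 3 and 4.88, 5.15 and 5.97 CPM at day 7 (-0.46 ± 0.12, adjusted p = 0.00439), and its call was lost with quantile normalization (-0.094). Fgfr4, a growth factor receptor of activated satellite cells, fell by 1.44 ± 0.16 (limma adjusted p = 4.23e-06). Vcam1, an adhesion molecule used to sort these cells and also made by vessel lining, fell by 1.31 ± 0.11 (limma adjusted p = 2.44e-07), and Cdh15, M-cadherin, fell by 1.13 ± 0.071 (limma adjusted p = 3.08e-08). Myf5 was at 6.29, 4.05 and 4.34 CPM at day 3 and 2.77, 2.45 and 4.51 CPM at day 7 (-0.62 ± 0.23, adjusted p = 0.026). Its days overlapped, and it lost its call without day 3 replicate 1, day 7 replicate 1 or day 7 replicate 2 (limma adjusted p = 0.132, 0.0764 and 0.121). The call of Myf5 was also lost with quantile normalization (-0.22).

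Myoblast and early differentiation genes split. Of 18, 9 rose and 6 fell, and the list median of 0.24 turned to -0.17 with total-count scaling. Myog, the switch into terminal differentiation (chromosome 1, 134289989 to 134292548, plus strand, GRCm38), was at 246, 193 and 222 CPM at day 3 and 18.99, 22.6 and 31.3 CPM at day 7, a 9.21-fold fall (-3.20 ± 0.22, adjusted p = 5.12e-08). Myod1, which acts before it, fell 1.78-fold, from 97.7, 78.9 and 86.3 to 44.4, 51.9 and 51.2 CPM (-0.83 ± 0.14, adjusted p = 9.87e-05). The members that rose included the transcription factors Myf6 (0.61 ± 0.082) and Mef2c (0.57 ± 0.065), which act in formed fibres, the elongation factor Tcea3 (1.05 ± 0.11) and the nuclear cofactor Eya1 (0.68 ± 0.10). With library totals Myf6 and Mef2c changed by 0.21 and 0.17, still higher at day 7, while 8 of the 18 genes fell and 6 rose.

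Fusion genes fell unevenly. Of 21 tested 15 fell and 3 rose (none with library totals), with a median of -0.50, and the muscle-specific fusogens had the largest falls of the list. Mymx, myomixer (chromosome 17, 45600971 to 45602102, minus strand, GRCm38), was at 46.4, 37.8 and 42.2 CPM at day 3 and 2.02, 1.86 and 2.73 CPM at day 7 (-4.27 ± 0.30, adjusted p = 5.97e-08). Mymk, myomaker (chromosome 2, 27061636 to 27072179, minus strand, GRCm38), was at 172, 117 and 136 CPM at day 3 and 9.76, 11.7 and 16.9 CPM at day 7 (-3.49 ± 0.27, adjusted p = 1.42e-07). Cdh2, N-cadherin, fell by 2.49 ± 0.17 (limma adjusted p = 5.5e-08), while the membrane-repair genes Dysf and Cav3, also used in fusion, did not pass.

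Embryonic and neonatal fibre genes fell in 12 of 19 cases, all 12 at least 2-fold, and rose in 2, none of them with either other scaling, with a median of -1.50. Myh3, embryonic myosin heavy chain (chromosome 11, 67078300 to 67102291, plus strand, GRCm38), was at 1043, 822 and 945 CPM at day 3 and 40.8, 37.2 and 67.6 CPM at day 7, 19.9-fold lower (-4.31 ± 0.28, adjusted p = 4.16e-08). Myh8, the perinatal myosin that follows it, was at 389, 293 and 339 CPM at day 3 and 57.2, 85.3 and 192 CPM at day 7 (-1.79 ± 0.31, adjusted p = 0.00017). The perinatal form fell 3.46-fold and was spread more widely at day 7, with replicate 3 at 192 CPM. Chrng, the fetal subunit of the acetylcholine receptor, was at 108, 77.3 and 89.7 CPM at day 3 and 3.83, 2.78 and 5.65 CPM at day 7 (-4.53 ± 0.34, adjusted p = 1.02e-07), and Tnnt2, cardiac troponin T, which immature fibres also make, was at 334, 229.6 and 275 CPM at day 3 and 20.5, 26.5 and 35.0 CPM at day 7 (-3.37 ± 0.24, adjusted p = 7.57e-08). Not every early gene fell. Csrp3, a Z-disc protein of stretched and slow muscle, was at 253, 82.2 and 155 CPM at day 3 and 329, 89.4 and 94.9 CPM at day 7 (-0.070 ± 0.46, adjusted p = 0.901), and day 7 replicate 1 was the high one. H19, an imprinted RNA of developing muscle, was at 2562, 2087 and 2233 CPM at day 3 and 2705, 2527 and 3704 CPM at day 7 (0.36 ± 0.15, adjusted p = 0.0471), a change that turned to -0.046 with library totals and -0.22 with quantile normalization and lost its call without any 1 of 3 libraries, with limma adjusted p of 0.110 to 0.214.

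Adult fast fibre genes rose together by similar amounts. All 24 tested members passed as higher, where 33.6% of all tested genes did, although Myl1, Neb, Mylpf, Myh1 and Acta1 turned to -0.083, -0.039, -0.035, -0.041 and -0.11 with quantile normalization. The changes ran from 0.64 to 1.33 (median 0.87), and 3 were at least 2-fold. As a share of all reads this list took 14.5, 16.1 and 15.3% in the day 3 muscles and 19.1, 21.3 and 21.5% in the day 7 muscles, a large share at both days. Myh4, the fastest adult myosin, was at 16305, 21563 and 19253 CPM at day 3 and 30551, 36017 and 35047 CPM at day 7 (0.84 ± 0.15, adjusted p = 0.000204), and Myh1, the next fastest, at 11438, 11945 and 11711 CPM at day 3 and 21166, 18824 and 20461 CPM at day 7 (0.78 ± 0.12, adjusted p = 6.31e-05). Both myosins lost their calls with quantile normalization. Pvalb, the calcium buffer of fast fibres, rose from 8075, 9685 and 8709.5 to 15573, 23280 and 19508 CPM (1.13 ± 0.15, adjusted p = 1.65e-05), and Mylk2, the kinase of the fast myosin light chain, rose 2.16-fold (1.11 ± 0.10, adjusted p = 6.2e-07). Myh2, myosin of fast oxidative fibres, had the largest change of the list but an uneven one: 326, 418 and 384 CPM at day 3 and 2062, 608 and 658 CPM at day 7 (1.33 ± 0.34, adjusted p = 0.00355). Day 7 replicate 1 stood at 2062 CPM, more than 3 times the other two. With total-count scaling 22 of the 24 passed as higher (median 0.46). With quantile normalization, which gives every library the same distribution and so holds the most abundant genes in place, 13 did (median 0.25) and none passed as lower.

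The binding site of MEF2, a factor of differentiated muscle, was found by its letters in 6 of 18 promoter windows of the fast fibre list (33.3%) and in 1.84% of all windows. Mylk4, a myosin light chain kinase of fast muscle, and Xirp2, a scaffold of the junction between fibre and tendon, are shown as members with a match near the start. Both rose, Mylk4 from 358, 594 and 497 to 906, 971 and 774 CPM (0.90 ± 0.15, adjusted p = 0.000162) and Xirp2 from 1149, 1190.2 and 1181 to 2092, 1878 and 1593 CPM (0.65 ± 0.099, adjusted p = 5.7e-05). Capitals mark the match.
Mylk4 (chr13:32783965-32784124, minus strand): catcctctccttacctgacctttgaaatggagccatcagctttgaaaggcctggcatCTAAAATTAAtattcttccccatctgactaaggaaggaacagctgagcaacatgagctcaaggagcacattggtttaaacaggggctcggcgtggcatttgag
Xirp2 (chr2:67445842-67446001, plus strand): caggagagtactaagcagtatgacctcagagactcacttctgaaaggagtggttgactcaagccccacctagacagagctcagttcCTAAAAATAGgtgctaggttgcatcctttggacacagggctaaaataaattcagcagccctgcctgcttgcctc

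Genes of slow fibres did not move as one. Of 12 tested, 4 rose and 6 fell. Those that fell, the troponins Tnnc1 (-3.48 ± 0.29), Tnni1 (-2.53 ± 0.29) and Tnnt1 (-2.35 ± 0.28), the calsequestrin Casq2 (-1.49 ± 0.17), the tropomyosin Tpm3 (-1.26 ± 0.10) and the calcium pump Atp2a2 (-1.10 ± 0.16), include forms that immature fibres also make. Myl2, the slow regulatory light chain, rose from 5.17, 1.22 and 2.65 to 7.75, 8.75 and 7.50 CPM (1.64 ± 0.54, adjusted p = 0.0155). That call was lost with total-count scaling and without day 3 replicate 2, the lowest of its group, where the change was 1.11 (limma adjusted p = 0.0836). Myl3, the slow essential light chain, was at 12.1, 14.7 and 13.8 CPM at day 3 and 64.5, 29.4 and 16.9 CPM at day 7 (1.23 ± 0.36, adjusted p = 0.00823), and here too day 7 replicate 1 was highest. Myh7, slow myosin itself, did not pass at 8.07, 2.86 and 5.19 CPM at day 3 and 3.07, 3.15 and 6.48 CPM at day 7 (-0.31 ± 0.81, adjusted p = 0.749).

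Calcium handling and energy supply rose with the fast contractile genes. In calcium handling 17 of 22 rose and 4 fell (median 0.74). With library totals 13 rose and 5 fell, and with quantile normalization 13 rose and 4 fell (median 0.29). Atp2a1, the fast calcium pump, was at 12447, 15259 and 13833 CPM at day 3 and 29283, 28955 and 29634 CPM at day 7 (1.09 ± 0.13, adjusted p = 6.03e-06), a call lost with quantile normalization (0.13). Trdn, triadin of the calcium release complex, rose 2.23-fold (1.16 ± 0.10, adjusted p = 3.58e-07). With the authors' scaling the 4 that fell were Ryr3, Casq2, Atp2a2 and Sln, forms of immature or slow fibres. Sln, sarcolipin, an inhibitor of the pump, was at 55.5, 29.8 and 40.1 CPM at day 3 and 13.1, 14.3 and 41.7 CPM at day 7 (-1.03 ± 0.36, adjusted p = 0.0202), with replicate 3 at the day 3 level, and lost its call without any 1 of 3 libraries (limma adjusted p = 0.0879 to 0.0929).

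Glycogen and glycolysis genes of the fibre rose in 22 of 23 cases (median 0.88), 7 of them at least 2-fold. Ppp1r3c, which targets a phosphatase to glycogen, was at 97.5, 109 and 105 CPM at day 3 and 271, 306 and 218 CPM at day 7 (1.34 ± 0.10, adjusted p = 1.34e-07). Pygm, muscle glycogen phosphorylase, and Phka1, a regulatory subunit of its kinase, rose 2.15-fold and 2.18-fold (limma adjusted p = 5.56e-07 and 2.96e-07). The 1 of the list that fell was Pgm2 (-1.03 ± 0.12, adjusted p = 5.83e-06). Outside the list, the general forms Pfkp (-1.04), Eno1 (-0.75) and Pgam1 (-1.13), which are not particular to muscle, also passed as lower. With library totals the counts stayed at 22 and 1, and with quantile normalization 15 rose and 2 fell.

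All tested members of 2 lists of mitochondrial genes encoded in the nucleus rose. Oxidative phosphorylation passed as higher in 30 of 30 genes (median 0.88, range 0.61 to 1.18) and the citric acid cycle in 19 of 19 (median 0.91). Both scalings left 30 of 30 and at least 18 of 19 higher. The first list holds the muscle forms Cox6a2, Cox7a1 and Cox8b of complex IV subunits. Their general forms, outside the list, divided: Cox6a1 (-0.72) and Cox8a (-0.73) passed as lower and Cox7a2 (0.55) as higher. Cox7a1, the muscle form of a complex IV subunit, was at 276, 336 and 302 CPM at day 3 and 823, 712 and 551 CPM at day 7 (1.18 ± 0.13, adjusted p = 2.6e-06), and Mpc2, a subunit of the mitochondrial pyruvate carrier, at 118, 154 and 134 CPM at day 3 and 324, 305 and 235 CPM at day 7 (1.08 ± 0.11, adjusted p = 2.09e-06). Transcripts made from mitochondrial DNA rose in 7 of 9 tested genes, although their median change of 0.67 turned to -0.049 with quantile normalization, as mt-Cytb turned to -0.12 and mt-Nd6 to -0.041. Their sum held 7.57, 7.39 and 7.46% of reads at day 3 and 10.2, 9.67 and 7.88% at day 7.

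Fatty acid oxidation rose in 20 of 23 genes and fell in 1 (median 0.74), and with library totals 14 rose and 3 fell. Pdk4, which shuts pyruvate out of the citric acid cycle in favour of fat, was at 118, 94.6 and 103 CPM at day 3 and 302, 348 and 356 CPM at day 7 and rose 3.19-fold (1.67 ± 0.31, adjusted p = 0.000313). Ppargc1a, the coactivator PGC-1alpha that drives mitochondrial growth, was at 17.0, 18.8 and 19.1 CPM at day 3 and 49.5, 31.9 and 39.4 CPM at day 7 (1.12 ± 0.12, adjusted p = 1.97e-06). Cpt1a, the liver form of the gate for fat entry, was the one that fell (-1.64 ± 0.14, adjusted p = 2.53e-07), while its muscle form Cpt1b rose (0.73 ± 0.17, adjusted p = 0.00169).

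Partner genes that encode the early or general form and the adult muscle form of one protein, or of close relatives, can be compared without any scaling, since a library's size cancels in their ratio. A further 3 pairs set an immune proteasome subunit against the constitutive one it replaces. The 27 pairs in all were chosen after the values had been seen and are a description with no test. In these 27 the ratio of the first to the second partner was lower in all 3 day 7 muscles than in any day 3 muscle. In 26 pairs the first partner fell and the second rose with the authors' scaling. For a pair, ± gives the standard error from the spread of the ratio among the 3 scrambled muscles of each day, without limma. Relative to the day 3 mean, the log2 ratio of Chrng to Chrne, the fetal and adult receptor subunits, was -4.97, -5.87 and -4.75 in the 3 day 7 muscles, a change of -5.20 ± 0.41. For Myh3 against Myh4 it was -5.20, -5.58 and -4.67 (-5.15 ± 0.34). Troponin T (Tnnt2 against Tnnt3) changed by -4.24 ± 0.37 and troponin C (Tnnc1 against Tnnc2) by -4.12 ± 0.32.

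The exchange reached enzymes and the ribosome. Creatine kinase (Ckb against Ckm) changed by -2.90 ± 0.20, the adenine nucleotide carrier (Slc25a5 against Slc25a4) by -2.25 ± 0.21, and ribosomal protein L3 (Rpl3 against its muscle form Rpl3l) by -2.67 ± 0.27. The general forms are made by many cell types of the muscle, and the part of other cell types in these ratios was not tested. Subunit 7a of complex IV gave the smallest change of these pairs (-0.62 ± 0.11), and there both partners rose.

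**Figure D3:**
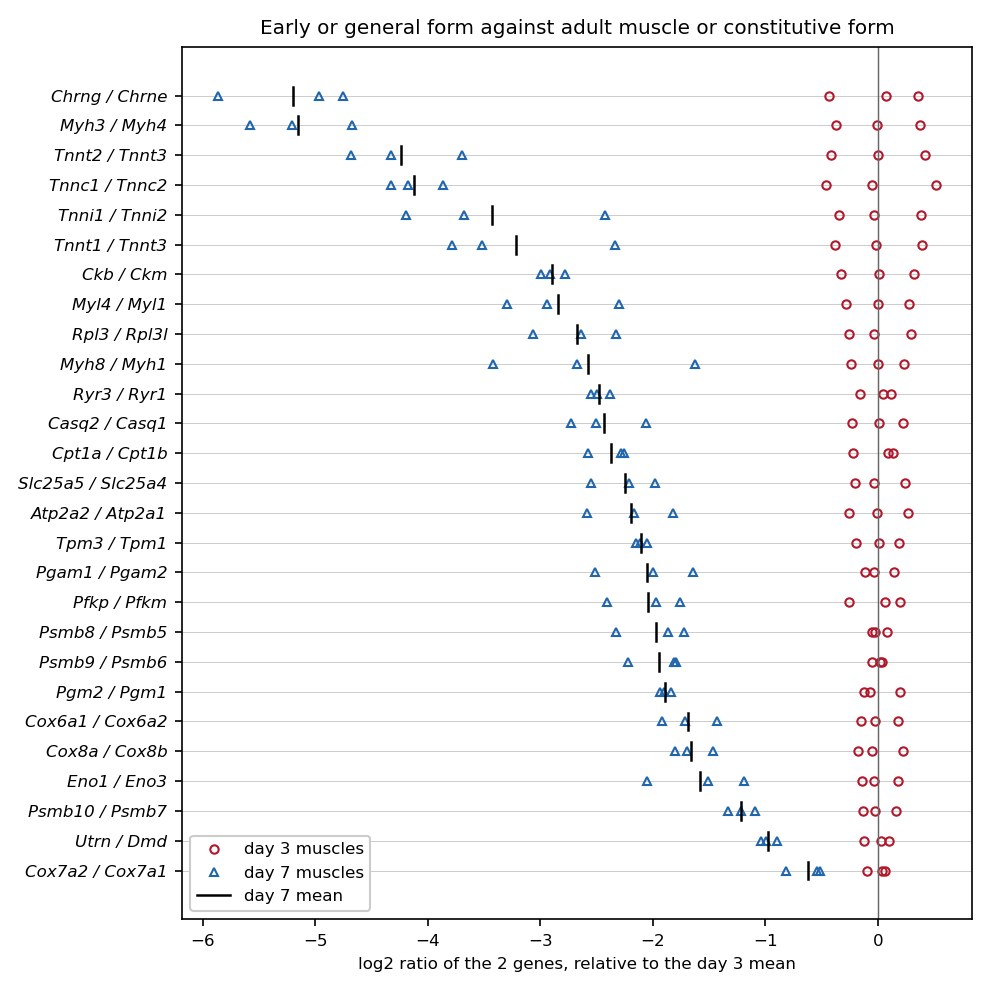
Log2 ratio of the early or general partner to the adult muscle or constitutive partner in each muscle, relative to the day 3 mean (x axis), for 27 gene pairs ordered by the day 7 mean (black bars). Day 7 muscles (blue triangles) lie to the left of day 3 muscles (red circles) in these 27 pairs, from Chrng/Chrne at -5.20 to Cox7a2/Cox7a1 at -0.62.

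Genes of the nerve-muscle junction include the receptor pair above. Of 17 genes 7 fell and 3 rose, where 35.0% and 33.6% of all tested genes did, and the rest did not pass. With library totals 11 fell and 1 rose, and with quantile normalization 7 fell and 5 rose. The receptor subunits Chrng (-4.53 ± 0.34), Chrnd (-2.55 ± 0.18) and Chrna1 (-2.17 ± 0.15), which uninnervated fibres make along their whole length, fell, as did Musk (-1.16 ± 0.14), the kinase that gathers them under the nerve. Chrne, the adult subunit, rose from 16.3, 20.1 and 16.4 to 23.1, 31.3 and 29.4 CPM (0.66 ± 0.13, adjusted p = 0.000507), a call lost with library totals (0.25), and Scn4a, the sodium channel of innervated muscle, rose from 156, 198 and 183 to 355, 284 and 286 CPM (0.78 ± 0.11, adjusted p = 2.26e-05). CAGCTG, an E-box read by the Myod1 family, was found in 12.5% of all windows, in 6 of 21 of embryonic and neonatal genes (28.6%), in 5 of 18 of fast fibre genes (27.8%) and in 4 of 10 of macrophage genes (40.0%), so its letters did not set muscle lists apart. Chrng and Chrna1, with a pair each in capitals, are shown as the falling receptor subunits that the table holds.
Chrng (chr1:87205651-87205810, plus strand): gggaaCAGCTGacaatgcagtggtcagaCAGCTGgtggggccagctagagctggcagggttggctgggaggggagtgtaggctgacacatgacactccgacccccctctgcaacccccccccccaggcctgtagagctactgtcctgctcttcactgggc
Chrna1 (chr2:73580339-73580498, minus strand): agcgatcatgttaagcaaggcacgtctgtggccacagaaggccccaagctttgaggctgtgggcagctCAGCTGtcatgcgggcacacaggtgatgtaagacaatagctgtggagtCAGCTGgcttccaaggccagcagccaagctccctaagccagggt

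In the complex that ties fibres to their matrix, 11 of 20 genes rose and 4 fell, but the median of 0.31 turned to -0.099 with total-count scaling. Dmd, whose mdx mutation stops the protein but not all RNA, was at 17.2, 18.0 and 16.6 CPM at day 3 and 25.9, 22.3 and 27.7 CPM at day 7 (0.55 ± 0.080, adjusted p = 4.09e-05), a call lost with library totals (0.14). Utrn, the related utrophin that fetal and regenerating fibres use, was at 39.7, 35.7 and 36.4 CPM at day 3 and 28.1, 25.9 and 29.1 CPM at day 7 (-0.43 ± 0.084, adjusted p = 0.000461). Nos1, the nitric oxide synthase that the complex anchors, rose 2.10-fold, with day 7 replicate 1 at 161 CPM and the others at 96.0 and 88.5 CPM (1.07 ± 0.17, adjusted p = 8.14e-05). Sntb1, a syntrophin, fell (-1.83 ± 0.17, adjusted p = 7.46e-07). Among growth and wasting genes 7 of 19 rose and 7 fell, near the 33.6% and 35.0% of all tested genes, and 1 rose and 10 fell with library totals. Mstn, myostatin, the brake on muscle mass, rose from 5.72, 5.60 and 6.18 to 10.9, 9.31 and 10.0 CPM (0.78 ± 0.15, adjusted p = 0.000441), a call lost with library totals (0.38). Igf2, a growth factor of regenerating fibres, fell from 6.32, 5.69 and 6.54 to 2.11, 1.91 and 5.15 CPM (-1.16 ± 0.27, adjusted p = 0.00182), and Igf1, which macrophages and fibres make, fell from 74.7, 66.6 and 66.3 to 33.1, 53.9 and 50.2 CPM (-0.63 ± 0.15, adjusted p = 0.00187).

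Most matrix genes fell. Of 19 collagens 13 fell and 4 rose, with a median of -0.91. Col1a1, the main chain of fibrous collagen, was at 2267, 2359 and 2342 CPM at day 3 and 791, 1058 and 1181 CPM at day 7 (-1.22 ± 0.12, adjusted p = 1.22e-06), and Col3a1, its partner in young scar, at 3907, 4367 and 4192 CPM at day 3 and 1192, 2047 and 2360.2 CPM at day 7 (-1.21 ± 0.19, adjusted p = 6.36e-05). The day 7 muscles all lay below the day 3 muscles for both, with replicate 1 lowest. The 4 that rose were Col22a1 (0.71 ± 0.14), a collagen of the junction of fibre and tendon, and Col15a1, Col4a1 and Col4a2 (0.40 ± 0.11, 0.34 ± 0.10 and 0.33 ± 0.091), of the basement membrane around fibres and vessels, while with library totals none rose, 14 fell, and the last 3 of these turned.

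Proteins laid down for a short time in wounds fell with them. Of 24 such genes 20 fell, 14 at least 2-fold, with a median of -1.37. Postn, periostin, was at 847, 827 and 836 CPM at day 3 and 168, 216 and 195 CPM at day 7 (-2.12 ± 0.083, adjusted p = 3.7e-09), and Tnc, tenascin C, at 96.7, 79.8 and 87.2 CPM at day 3 and 34.6, 37.1 and 25.9 CPM at day 7 (-1.44 ± 0.13, adjusted p = 3.83e-07). Spp1, osteopontin, which macrophages make, was at 372, 373 and 375 CPM at day 3 and 75.2, 41.3 and 36.1 CPM at day 7 (-2.95 ± 0.26, adjusted p = 3.62e-07), and Cthrc1, of activated fibroblasts, fell by 2.88 ± 0.20 (limma adjusted p = 5.34e-08). Mmp12, the elastase of macrophages, fell 17.0-fold, from 63.0, 49.0 and 54.1 to 2.86, 2.84 and 4.13 CPM (-4.09 ± 0.47, adjusted p = 4.47e-06). Fmod, a proteoglycan of tendon and mature matrix, rose from 109, 70.4 and 85.2 to 147, 148 and 152 CPM (0.78 ± 0.14, adjusted p = 0.000281).

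Markers of the progenitors that make this matrix changed unevenly. Of 21 genes of fibro-adipogenic progenitors 10 fell and 2 rose, with a median of -0.29, against 35.0% and 33.6% of all tested genes. With library totals 16 fell and none rose (median -0.69), and with quantile normalization 9 fell and 1 rose (median -0.13). Pdgfra, their defining receptor, was at 43.6, 51.6 and 48.3 CPM at day 3 and 32.1, 38.1 and 39.5 CPM at day 7 (-0.39 ± 0.088, adjusted p = 0.00133), and Ly6a, their Sca-1 antigen, which vessel lining shares, was at 139, 139 and 140.2 CPM at day 3 and 53.6, 59.9 and 52.9 CPM at day 7 (-1.33 ± 0.081, adjusted p = 2.4e-08). Tgfb1, the growth factor that drives matrix production, fell by 1.63 ± 0.13 (limma adjusted p = 1.79e-07), while Smad6, an inhibitor inside BMP-responsive cells, rose (0.93 ± 0.14, adjusted p = 4.21e-05).

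Vessel genes rose. Of 22 endothelial genes 19 rose and none fell, with a median of 0.69, while with library totals 12 rose and 3 fell (median 0.28). Pecam1, a junction protein of vessel lining, was at 47.0, 42.1 and 42.1 CPM at day 3 and 73.1, 70.2 and 71.8 CPM at day 7 (0.71 ± 0.068, adjusted p = 8.54e-07), and Sox18, a transcription factor of growing vessels, at 8.20, 8.65 and 8.60 CPM at day 3 and 15.4, 16.6 and 15.4 CPM at day 7 (0.90 ± 0.098, adjusted p = 2.88e-06). Kdr, the main VEGF receptor, was at 22.3, 26.1 and 26.0 CPM at day 3 and 51.4, 42.1 and 39.6 CPM at day 7 (0.83 ± 0.11, adjusted p = 1.06e-05). No day 7 muscle fell into the day 3 range for these genes, but none of the 22 changed 2-fold. Vegfa, the ligand of Kdr, which fibres make, rose 2.04-fold, from 91.7, 101 and 98.5 to 262, 162 and 185 CPM (1.03 ± 0.13, adjusted p = 7.96e-06). Pericyte genes rose in 8 of 15 cases and fell in 4, with 4 and 6 when scaled by library totals. Rgs5, a pericyte regulator of G proteins, rose 1.95-fold (0.96 ± 0.079, adjusted p = 2.28e-07). Acta2, smooth muscle actin, which myofibroblasts also make, fell from 335, 261 and 284 to 41.7, 74.3 and 80.9 CPM (-2.21 ± 0.18, adjusted p = 2.6e-07). Schwann cell genes fell in 5 of 11 and rose in none, while 2 rose and 3 fell with quantile normalization.

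Most cytosolic ribosomal protein genes fell by small amounts. Of 24 cytosolic ribosomal proteins 22 fell, with a median of -0.40; only Rpl3 fell 2-fold (-1.64 ± 0.12, adjusted p = 6.91e-08), and only its muscle form Rpl3l rose, from 270.4, 344 and 309 to 705, 642 and 544 CPM (1.03 ± 0.10, adjusted p = 1.23e-06). The endoplasmic reticulum stress list fell in 12 of 20 genes and rose in 4, none of which rose with library totals. Pdia3, a folding enzyme of secreted proteins, was at 218, 205 and 217 CPM at day 3 and 89.7, 102 and 96.1 CPM at day 7 (-1.15 ± 0.077, adjusted p = 4.58e-08). Of 23 proteasome genes 10 rose and 6 fell, with 1 and 17 when scaled by library totals. The immune subunits Psmb8 (-1.66 ± 0.14) and Psmb9 (-1.68 ± 0.12) fell, and the subunits they replace, Psmb5 (0.31 ± 0.071) and Psmb6 (0.26 ± 0.074), rose, but with library totals these rises turned to -0.093 and -0.15, and those of Psmd1 and Psmc2 to -0.076 and -0.082. Psma5, a constitutive subunit, fell too (-0.18 ± 0.067, adjusted p = 0.0312). Antioxidant genes gave 6 higher and 6 lower of 19 (1 and 15 with library totals). Sod2, the mitochondrial superoxide dismutase, rose 1.91-fold (0.94 ± 0.088, adjusted p = 7.27e-07), Mt3, a metallothionein, fell by 1.78 ± 0.26 (limma adjusted p = 3.57e-05), and the small rises of Gclm and Gsr turned to -0.065 and -0.16 with library totals. Of 18 clock genes 10 rose and 4 fell (4 and 6 with library totals), and the hour of collection is not given in the labels.

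Counts in several smaller lists stand beside the 33.6% of all tested genes that rose and the 35.0% that fell, and a share near those says nothing particular of a list. Energy buffering by phosphocreatine and purines rose in 8 of 14 genes and fell in 4 (median 0.46), with 5 and 5 when scaled by library totals. Ckmt2, the mitochondrial creatine kinase of muscle, rose 2.32-fold (1.21 ± 0.15, adjusted p = 8.23e-06), and Gatm, the first enzyme of creatine synthesis, was at 116, 89.6 and 105 CPM at day 3 and 12.4, 17.0 and 23.9 CPM at day 7 (-2.58 ± 0.20, adjusted p = 1.59e-07). In the IGF system 5 of 12 fell and 3 rose, and none rose with library totals. Igfbp2, a binding protein that holds the growth factors, fell 7.10-fold, from 3.65, 3.33 and 3.75 to 0.332, 0.506 and 0.731 CPM (-2.83 ± 0.25, adjusted p = 4.81e-07). Early response genes fell in 8 of 20 and rose in 2, with 14 and 1 when scaled by library totals. Egr2 (-1.44 ± 0.27) and Junb (-1.28 ± 0.27) had the largest falls, while Nr4a1, an orphan receptor induced by activity, rose from 49.8, 56.4 and 52.2 to 88.5, 98.7 and 116 CPM (0.93 ± 0.13, adjusted p = 2.18e-05). Hgf, the growth factor that wakes satellite cells, stood out in a list of angiogenic and hypoxia genes that gave 8 higher and 6 lower of 21 (6 and 12 with library totals). It was at 1.91, 3.02 and 3.02 CPM at day 3 and 0.271, 0.141 and 0.349 CPM at day 7 (-3.41 ± 0.34, adjusted p = 1.44e-06), and its receptor Met fell as well (-0.73 ± 0.091, adjusted p = 9.67e-06).

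Enzymes that cross-link and cut the matrix fell in 15 of 23 genes and rose in 1 (median -0.95), and elastic fibre genes fell in 12 of 16 and rose in 2 (median -0.84). Lox, lysyl oxidase, which ties collagen chains together, was at 109.6, 103 and 104 CPM at day 3 and 35.5, 31.7 and 30.0 CPM at day 7 (-1.71 ± 0.091, adjusted p = 1.05e-08). Fbn1, fibrillin, the scaffold of elastic fibres, fell from 260.1, 351 and 320.4 to 82.5, 106 and 128 CPM (-1.57 ± 0.15, adjusted p = 7.69e-07). Ltbp4, which stores TGF-beta in the matrix, rose from 61.4, 66.7 and 65.7 to 108, 116 and 120.3 CPM (0.83 ± 0.075, adjusted p = 5.6e-07). The TGF-beta, activin and BMP list gave 8 higher and 10 lower of 24, and 1 and 15 with library totals. Tendon genes gave 5 higher and 4 lower of 12, and fat cell genes 6 and 2 of 14, with medians that turned to -0.18 and -0.051 with library totals. Cebpa, a factor of fat cells and of myeloid cells, fell by 2.07 on the log2 scale (limma adjusted p = 3.29e-07). Ribosome assembly gave 4 higher and 8 lower of 22. Mast cell genes gave 1 and 1 of 5, erythroid genes 1 and 0 of 6, skin genes 2 and 1 of 3, and cartilage and bone genes 1 and 2 of 7. With library totals no gene of these last 5 lists rose.

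The largest single changes were falls. Gal, the neuropeptide galanin (chromosome 19, 3409915 to 3414544, minus strand, GRCm38), was at 31.2, 21.9 and 26.7 CPM at day 3 and 0.603, 0.591 and 0.858 CPM at day 7, 38.7-fold lower and the largest fall among genes with a mean of at least 5 CPM on the higher day (-5.27 ± 0.59, adjusted p = 3.92e-06). R3hdml, a secreted protein, was at 19.8, 16.2 and 15.8 CPM at day 3 and 0.603, 0.366 and 0.858 CPM at day 7 (-4.89 ± 0.35, adjusted p = 7.69e-08), Smim6, a small membrane protein, at 7.23, 4.80 and 5.19 CPM at day 3 and 0.181, 0.112 and 0.318 CPM at day 7 (-4.87 ± 0.36, adjusted p = 1.04e-07) and Stra6l at 10.7, 8.46 and 9.56 CPM at day 3 and 0.211, 0.506 and 0.476 CPM at day 7 (-4.66 ± 0.36, adjusted p = 1.34e-07). The rises were smaller. Mybphl, a myosin-binding protein related to that of heart atria, rose most on the log2 scale, at 0.627, 0.139 and 0.451 CPM at day 3 and 1.18, 6.97 and 8.48 CPM at day 7 (3.56 ± 0.65, adjusted p = 0.000274). Mettl21e, a lysine methyltransferase of muscle, rose 3.53-fold, at 1.80, 2.19 and 2.17 CPM at day 3 and 9.07, 7.09 and 5.91 CPM at day 7 (1.82 ± 0.18, adjusted p = 1.33e-06). Zbtb16, a transcription factor induced by glucocorticoids, was at 7.91, 8.63 and 7.98 CPM at day 3 and 32.4, 22.0 and 17.8 CPM at day 7 (1.51 ± 0.18, adjusted p = 6.45e-06), and Gdap1, a protein of the outer mitochondrial membrane, at 3.45, 4.41 and 3.78 CPM at day 3 and 13.6, 11.5 and 11.1 CPM at day 7 (1.64 ± 0.14, adjusted p = 3.67e-07). Kcne1l (1.76 ± 0.41), Teddm2 (1.52 ± 0.16), Lrrc30 (1.51 ± 0.12), Adhfe1 (1.48 ± 0.16) and Tmem267 (1.46 ± 0.28) completed the 12 largest rises among genes with a gene name, no overlap and a mean of at least 5 CPM on the higher day, together with Pdk4, Myl2 and Lars2, a mitochondrial leucine tRNA synthetase at 218, 242 and 195 CPM at day 3 and 595, 494 and 734 CPM at day 7 (1.46 ± 0.20, adjusted p = 2.65e-05), whose counts can take in reads of ribosomal RNA-like repeats.

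The day 7 muscles differed more among themselves than the day 3 muscles. The SD of log2 CPM had a median of 0.081 at day 3 and 0.143 at day 7, and it was larger at day 7 in 75.3% of genes. Replicate 3 of day 7 lay nearest to day 3 for more of the passing genes than either other replicate. Among the 4770 genes that fell it held the highest day 7 value in 54.0%, against 29.8% for replicate 2 and 16.2% for replicate 1, and among the 4572 that rose it held the lowest in 58.6%, against 25.4% and 15.9%. On the first principal component the day 7 muscles stood at 66.8, 52.5 and 39.7 and the day 3 muscles at -57.8, -48.6 and -52.5. The sum of mitosis genes, as log2 relative to the day 3 mean, was at -2.53, -2.30 and -1.69 in replicates 1, 2 and 3, and mitochondrially encoded genes were at 0.91, 0.80 and 0.41. Not every list kept this order. The fast fibre sum was at 0.77, 0.91 and 0.83 in the same replicates, and the cytosolic ribosome sum at -0.32, -0.26 and -0.41. Without replicate 3 of day 7, 9289 genes passed.

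**Figure D4:**
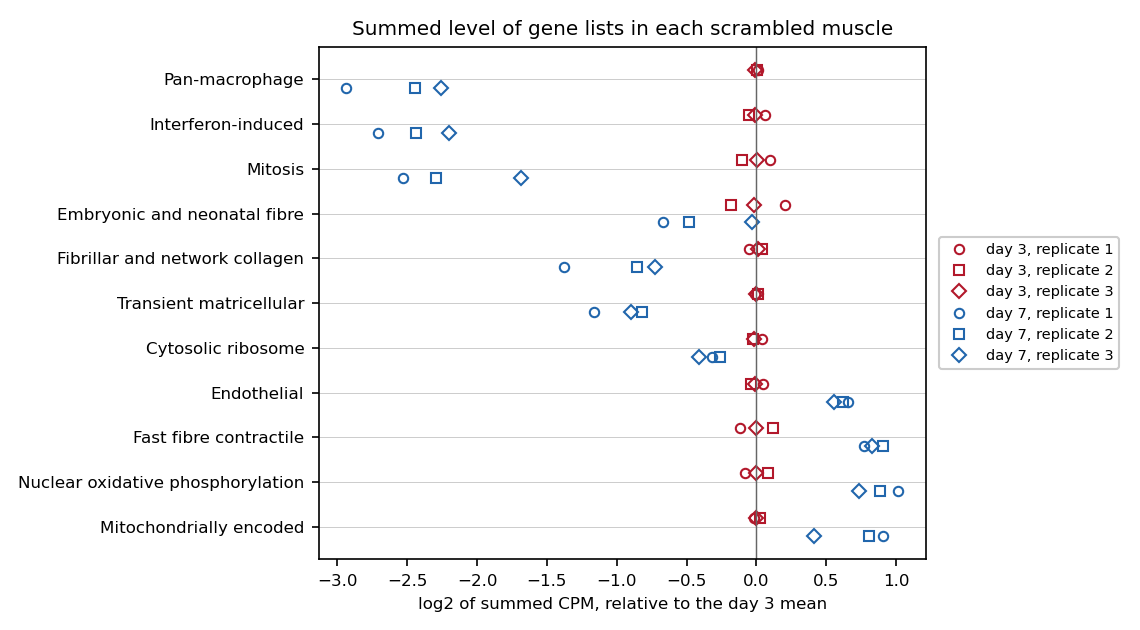
Summed CPM of 11 gene lists in each muscle, as log2 relative to the day 3 mean (x axis), with a symbol for each replicate number (numbers are not taken to link muscles of different days). Day 7 replicate 3 (blue diamonds) lies nearest to day 3 for mitosis (-1.69) and mitochondrially encoded genes (0.41), and its embryonic and neonatal sum (-0.029) lies within the day 3 range. Of the 6419 CPM in that sum H19 held 3704 and Actc1 1556, and neither gene passed as lower. In the same muscle Myh3 was at 67.6 CPM, against 822 to 1043 CPM at day 3.

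Single genes also varied by muscle at day 7, chosen here for that spread after their values were seen. Cyp26b1, which degrades retinoic acid, was at 1.75, 1.91 and 2.12 CPM at day 3 and 25.5, 1.55 and 1.46 CPM at day 7. Pttg1, securin, a brake on chromosome separation, was at 13.2, 12.8 and 12.0 CPM at day 3 and 3.29, 39.6 and 3.97 CPM at day 7, and Cish, a feedback inhibitor of cytokine signals, at 1.91, 4.85 and 2.93 CPM at day 3 and 4.43, 19.5 and 2.64 CPM at day 7. Each had 1 high day 7 muscle, and none passed (limma adjusted p = 0.256, 0.371 and 0.107). Replicate 1 was the high one for Cyp26b1, Myh2 and Myl3, and replicate 2 for Pttg1 and Cish.

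The change from day 3 to day 7 was mostly smaller in scrambled muscles than in muscles given anti-miR-106b. The difference between the arms, tested as an interaction in the same limma fit, passed for 3130 genes (23.0% of those tested). Of these, 2915 moved the same way in both arms and less in scrambled muscles, 39 the same way and more, and 176 in opposite directions. The median absolute change of all tested genes was 0.43 in scrambled and 0.64 in anti-miR-106b muscles. In 2844 of the 3130 genes (90.9%) the arms lay farther apart at day 3 than at day 7, with median gaps of 0.47 and 0.11. The count was 2079 without scrambled day 3 replicate 2 and 5323 with library weights. At day 3 the arms also differed in scaling factor (1.12 ± 0.031 and 1.28 ± 0.033) and in the share of mitochondrial reads (7.64 ± 0.109% and 4.81 ± 0.019%, SD, n = 3 each); the part of these in the result was not tested.

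Interferon genes and vessel genes held many of these differences, set against 23.0% of all tested genes. Of 26 interferon genes 21 differed, all with the smaller fall in scrambled muscles (list medians -2.54 and -3.47). Isg15 was at 25.8, 25.0 and 24.7 CPM in scrambled and 58.7, 61.9 and 53.0 CPM in anti-miR-106b muscles at day 3, and at 2.56, 2.95 and 4.03 and 3.14, 1.89 and 2.83 CPM at day 7, and its change was -3.01 ± 0.18 and -4.49 ± 0.18 (difference 1.49 ± 0.25, limma adjusted p = 0.00197). Of 22 endothelial genes 17 differed, all with the more positive change in scrambled muscles, whose median was 0.69 against 0.051. Pecam1 rose by 0.71 ± 0.068 in scrambled muscles and differed by 0.063 ± 0.068 between days in the other arm, from 55.1, 50.5 and 51.6 to 57.2, 50.7 and 56.4 CPM (difference 0.65 ± 0.097, limma adjusted p = 0.00102). Apln, the ligand of a receptor on growing vessels, rose in scrambled muscles (0.88 ± 0.19) and differed by -0.89 ± 0.19 in the others (difference 1.77 ± 0.26, limma adjusted p = 0.00103).

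Fibre genes differed in the other direction. Among fast fibre genes 18 of 24, in oxidative phosphorylation 27 of 30 and in glycogen and glycolysis 22 of 23 rose less in scrambled muscles. Fast fibre medians were 0.87 and 1.60. Mylk4 was at 358, 594 and 497 CPM in scrambled and 137, 174 and 181 CPM in anti-miR-106b muscles at day 3. By day 7 it was at 906, 971 and 774 and 974, 978 and 1013 CPM (difference -1.70 ± 0.22, limma adjusted p = 0.000617). No member of the embryonic and neonatal fibre list passed for a difference between the arms, with medians of -1.50 and -2.12, which does not show that the arms were alike. Macrophage genes gave 1 difference of 16 and mitosis genes 2 of 24.

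**Figure D5:**
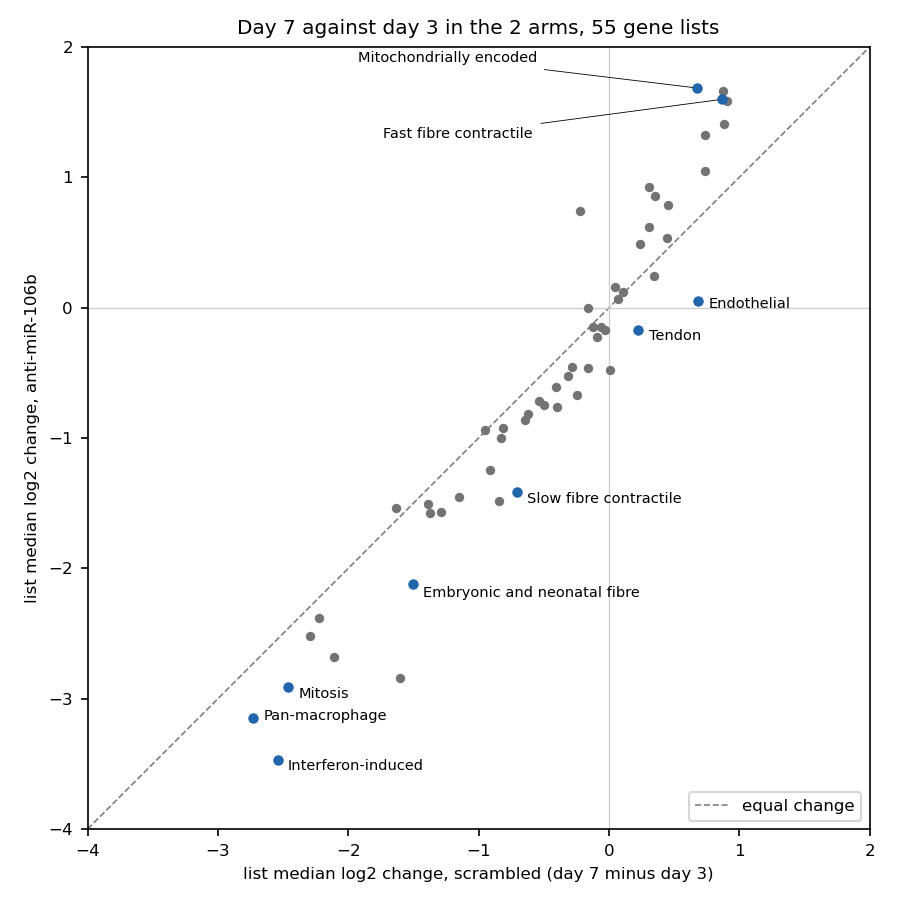
Median log2 change from day 3 to day 7 of each of the 55 gene lists in scrambled muscles (x axis) and in anti-miR-106b muscles (y axis), with the dashed line marking equal change. In 48 lists the median lies farther from 0 in the anti-miR-106b arm; the endothelial list lies the other way, at 0.69 and 0.05.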

How the data were processed

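RNA of 12 tibialis anterior muscles, 3 in each of 4 groups, was isolated with Direct-zol columns, and TruSeq RNA libraries were made from it, per the labels' protocols. The deposited table holds log2 CPM of 28116 gene symbols. The submitters' processing notes name STAR, featureCounts, limma 3.34.9, edgeR 3.20.9, Trim Galore 0.4.3.1 and FastQC 0.72, with no role for each, and strandedness is not given in the sources used here. On the linear scale values in each library lie on equal steps. Reads were recovered by subtracting the library's lowest value and dividing by the step (all 337392 values whole within 0.001). These reads gave depth, scaling factors and zeros. For the scaling by library totals 0.25 reads, adjusted to library size, were added before the log.

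The 13624 symbols with at least 1 CPM in at least 3 of the 6 scrambled libraries were tested on the deposited log2 CPM with limma 3.58.1 (R 4.3.3): 4 group means over 12 libraries, a trended prior (8 residual and 5.51 prior degrees of freedom), 2-sided, Benjamini-Hochberg over all tested symbols, passing below 0.05. The fit was tested on simulated data. The 55 gene lists, their members and the rule for named genes were chosen with earlier results of these data known. That rule takes the 12 largest changes in each direction without overlap and with at least 5 CPM (clone and predicted symbols left out), fixed regulators, up to 4 members a list and 16 genes for the difference between arms; other members named beside these (among them those of the slow fibre, collagen, proteasome and pair lists) were chosen after their values were seen. Some genes are not reported here, and pairs that hold them, among them 1 whose days overlapped, are not in the counts of pairs. A design of 3 animals against 3 cannot give an exact permutation p under 0.1, so p-values come from limma's shared estimate of the spread. Fold changes are 2 to the power of the log2 change. Promoters are 250 bases before RefSeq starts (GRCm38.p6), held for 10397 of 13624 symbols. Gene positions come from the GRCm38 annotation. Alternatives covered filters, pseudocounts, scaling, priors, weights, the replicate number as a block, the scrambled libraries alone and each library left out. The labels do not say that a replicate number links muscles of different days, so the main fit did not pair by it.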

Additional observations from a re-analysis of the deposited data

Results flagged for a closer look

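The 15 genes below were singled out for the difference between the arms (change in scrambled minus change in anti-miR-106b muscles, limma, 3 muscles in each of 4 groups): they were taken from the 8 of smallest p in each direction. A positive difference was found for Aplnr, the apelin receptor of vessel lining (0.90 ± 0.090, adjusted p = 0.000281), which rose from 23.5, 21.5 and 22.9 to 36.0, 37.7 and 38.3 CPM in scrambled muscles and was at 30.1, 28.0 and 27.2 and then 25.0, 24.7 and 25.5 CPM in the other arm. The interferon-linked genes Uba7, which activates Isg15 for conjugation, and Mov10, an antiviral helicase, differed by 1.07 ± 0.12 and 1.29 ± 0.16; both fell in both arms, less in scrambled muscles. Trp53i11 differed by 1.13 ± 0.13, the protocadherin Pcdh1 by 1.09 ± 0.13 and the formin Fmnl3 by 0.88 ± 0.11. The ribosomal protein gene Rps10, which has near-identical processed copies that can share its reads, differed by 1.47 ± 0.18.

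A negative difference, a smaller rise or larger fall in scrambled muscles, was found for Ppp1r3a, the glycogen-targeting subunit of muscle phosphatase (-1.26 ± 0.11), Tpbgl (-1.01 ± 0.094), the phospholipase Pla2g4e (-1.10 ± 0.11), the linker histone Hist1h1c (-1.04 ± 0.10), Sec14l5 (-0.85 ± 0.085), the carnosine methyltransferase Carnmt1 (-0.92 ± 0.093), the membrane-repair protein Ano5 (-0.81 ± 0.085) and the calcium channel subunit Cacna2d1 (-0.80 ± 0.087). Ppp1r3a went from 157, 183 and 171 to 365, 311 and 322 CPM in scrambled muscles and from 81.2, 79.5 and 89.1 to 398, 395 and 377 CPM in the other arm. Adjusted p over the 15 genes ran from 0.000281 to 0.00057. The genes were chosen for these differences, so their sizes are a description.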

How the results depend on the processing

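With library totals in place of the authors' scaling 1515 genes were higher and 8303 lower, and H19, Gclm, Gsr, Psmd1, Psmc2 and Hist1h1c turned (-0.046, -0.065, -0.163, -0.076, -0.082 and -0.032). With quantile normalization Myh1, Acta1, H19, mt-Cytb and mt-Nd6 turned (-0.041, -0.114, -0.225, -0.119 and -0.041). Those scalings ended the calls of 30 and 20 named genes, with those that turned except Gsr, which passed as lower. Leaving out 1 library gave 8376 to 9289 genes passing, 4052 to 4539 higher and 4324 to 4750 lower, and ended the call of 15 of 243 named genes. The difference between arms passed for 5323 genes with library weights and 2079 (without scrambled day 3 replicate 2) to 4531 (without scrambled day 7 replicate 1) when a library was left out. Every other alternative kept the 4 counts within 1.5 times. With the scrambled libraries alone 8981 genes passed (4376 higher, 4605 lower). In that fit 5 named genes lost their calls: Myf5, H19, Sln, Igkc and Myoz2. With the replicate number as a block 9269 genes passed (4532 higher, 4737 lower) and 2941 differed between arms, and 1 list or gene value moved; residuals of same-numbered muscles correlated at -0.198, 0.120 and -0.036. The 3 muscles a day, 31.5 to 38.3 reads at 1 CPM and the wider spread at day 7 limit what small changes can be seen, and values near 1 CPM rest on few reads.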
